A study of Mus musculus with 16 samples.

Results

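Spsb1, Pmepa1, Ski and Skil encode intracellular proteins that act on or beside the Smad branch of TGFβ-family signalling, and Chst15 encodes a sulfotransferase that the study grouped with genes of graded response. The 5 genes were chosen by symbol, former names allowed, and with results of these same arrays in view. Each has 1 probe on the array, so the account rests on 5 of 24606 probes and on 5 of the 15967 genes that a probe names. The study took them up for their response to these treatments, and assayed pSmad2 binding at Spsb1, Pmepa1 (called Tmepai there), Ski and Skil (called SnoN) as well. The differences of the 5 genes between Activin, SB and DMSO are therefore given as a description, without a test. DMSO against KSR and passage against passage were not used in the choice and are tested.

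The cells were E14TG2a mouse embryonic stem (ES) cells, an HPRT-deficient line grown here as 1 line with no genetic change between groups, and RNA was read on Illumina MouseRef-8 BeadChips. All 16 cultures were first held for 6 h in KSR medium, a serum-replacement medium without LIF, with 10 µM SB-431542, which blocks the kinases of the Activin and Nodal receptors. For the next 18 h they received 25 ng/ml Activin (Activin), 10 µM SB-431542 (SB), DMSO vehicle at 1 in 5000 (DMSO) or KSR medium alone (KSR). Each group holds 4 arrays, 1 each from passages 20, 21, 23 and 24, which are replicates 1 to 4. Every group, the DMSO and KSR controls included, carries the SB pretreatment, so none is an untreated culture. The study takes DMSO cultures as the endogenous, or medium, level of signalling, and the source of that signalling was not measured here. The groups share passages of 1 line, so the spread between arrays is that between cultures of different passages.

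Activin and Nodal bind serine/threonine kinase receptors, which phosphorylate Smad2 and Smad3. These join Smad4 in the nucleus and act with DNA-binding partners such as Foxh1. The pathway switches on its own inhibitors, some outside the cell, like the Lefty proteins, and some inside it. Of the intracellular ones, Pmepa1 is a membrane-anchored protein that holds Smad2 and Smad3 away from the receptor, while Ski and SnoN are corepressors that bind Smad complexes on DNA and recruit histone deacetylases. Spsb1 is a SPRY-domain protein with a SOCS box, the substrate-binding part of a ubiquitin ligase. Chst15 adds a further sulfate to chondroitin sulfate that already carries one, which gives the highly sulfated chondroitin sulfate E of the cell surface and matrix.

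In the GRCm38.p6 annotation Spsb1 lies on chromosome 4 at 149896283 to 149955006 and Ski on the same chromosome at 155154075 to 155222535. Pmepa1 lies on chromosome 2 at 173224458 to 173276731, Skil on chromosome 3 at 31095058 to 31122923 and Chst15 on chromosome 7 at 132235779 to 132323534. Spsb1 and Chst15 had the widest span between Activin and SB of the 5 genes, and the 250 bases before 1 annotated start site of each are shown side by side. The Spsb1 window lies just outside the annotated gene. The Chst15 window lies inside the annotated gene, before an internal start, so it is not the window of the outermost start. The sequences are from RefSeq (GRCm38.p6), on the strand of the gene, 5′ to 3′. Capitals mark CAGAC, the core letters of Smad boxes, and AATNNACA, letters like those Foxh1 binds, both searched on either strand (GTCTG and TGTNNATT on the other).
Spsb1, chr4:149955007-149955256, minus strand: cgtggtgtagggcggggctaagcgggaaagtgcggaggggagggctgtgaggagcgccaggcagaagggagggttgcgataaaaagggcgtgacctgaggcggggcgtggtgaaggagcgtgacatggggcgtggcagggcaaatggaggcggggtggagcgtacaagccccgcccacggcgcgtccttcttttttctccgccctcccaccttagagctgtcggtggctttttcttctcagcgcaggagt
Chst15, chr7:132317229-132317478, minus strand: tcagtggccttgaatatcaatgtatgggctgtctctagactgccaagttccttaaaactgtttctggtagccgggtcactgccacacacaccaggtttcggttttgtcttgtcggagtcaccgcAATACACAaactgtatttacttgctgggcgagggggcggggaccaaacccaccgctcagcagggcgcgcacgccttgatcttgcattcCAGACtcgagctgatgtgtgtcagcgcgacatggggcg

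The Spsb1 window held neither motif and the Chst15 window held each of them once, CAGAC from position -38 and AATNNACA from position -126 relative to the start site. The motifs do not overlap each other. The window before a second annotated start of Chst15 overlaps the one shown and holds the same CAGAC but no AATNNACA. The window before the start of Ski holds neither motif. Over the 32851 windows of the same length in the table, 42.2% held CAGAC and 10.9% held AATNNACA, so a match is common and marks letters, not a bound site. The Spsb1 window was 64.4% G or C and the Ski window 87.6%, against 54.8% in the Chst15 window shown and a median of 52.4% over all windows. Windows for 3 of the 5 genes were matched by symbol, and those of Pmepa1 and Skil are not shown.

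The study followed pSmad2 at these loci by chromatin immunoprecipitation with primers of its own, shown because they mark the places in Spsb1, Pmepa1, Ski and Skil that were assayed there, and it read Spsb1 RNA with a further pair. The study reports graded pSmad2 binding in introns of Tmepai, Ski and SnoN, and Spsb1 RNA that followed the signalling level by RT-PCR. Binding was not measured on these arrays, and the positions of the amplicons were not analysed here. Each line gives the forward primer and then the reverse primer, 5′ to 3′.
Spsb1, immunoprecipitation: ccactgctagcatcaaagagtga and cccgtgtagccagcactga
Pmepa1 (Tmepai), immunoprecipitation: ctgcacgaggccctgtct and caggcctaacgagattagattttca
Ski, immunoprecipitation: ggatggtagggaacaaattgca and cactggaagaaaggccacaga
Skil (SnoN), immunoprecipitation: acttcctctgccccctctca and cccactcatcatcaacccaaa
Spsb1, RNA: atccgcatgcgctacttga and atttggatcactggtagaggaggta

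The mean deposited intensity of an array lay between 486 and 760, and 9816 to 10482 probes were above background on an array. A probe was above background where its deposited intensity passed the 95th percentile of a set of 1191 chemosensory receptor probes (olfactory, vomeronasal or taste), a cut of 52.9 to 68.1 units. All 9 ES cell markers measured were above background on 4 or more arrays, against 1 of 9 fibroblast markers. Lefty1, the secreted Nodal antagonist, served as a scale of signalling: its deposited intensity was 9133 to 12953 on Activin arrays and 24.7 to 71.5 on SB arrays, against 2799 to 5499 on DMSO arrays. No array went against its label on this scale.

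Spsb1 showed a graded level, highest with Activin and lowest with SB. Its deposited intensities were 325, 489.5, 436.8 and 399.7 on Activin arrays and 90.8, 118.6, 105 and 99.9 on SB arrays, against 198.7, 256.2, 241.2 and 247 on DMSO arrays (replicates 1 to 4). On KSR arrays they were 235.1, 206.6, 254.1 and 256.3. All Activin arrays lay above all DMSO arrays, all SB arrays lay below them, and DMSO and KSR overlapped. On the normalized log2 scale the means were 8.90 ± 0.15 with Activin, 7.55 ± 0.14 with SB, 8.32 ± 0.13 with DMSO and 8.35 ± 0.09 with KSR (SD, n = 4 each).

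The Spsb1 level was 1.49-fold higher with Activin than with DMSO, a log2 difference of 0.58 (SE 0.09). With SB it was 1.71-fold lower than with DMSO, a log2 difference of -0.77 (SE 0.09), and between Activin and SB the log2 difference was 1.35 (SE 0.09), or 2.55-fold. The authors' normalized values, which carry no offset, give wider folds of 1.66 for Activin over DMSO, 2.27 for DMSO over SB and 3.77 for Activin over SB. The probe was above background on all 16 arrays, so each of these levels is measured. Within a passage the Activin minus SB difference was 1.33, 1.36, 1.40 and 1.31 in passages 20, 21, 23 and 24. The total span between high and low signalling was thus nearly the same in every passage, while the place of DMSO inside it was not. DMSO stood at 51.0% of the way from SB to Activin in passage 20, at 53.8% in passage 21, at 58.1% in passage 23 and at 66.0% in passage 24. These are single arrays per passage, and the drift was not tested.

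Chst15 was graded as well. Its deposited intensities were 204.6, 191.4, 155.4 and 211.4 on Activin arrays and 27.3, 43, 35.2 and 28.1 on SB arrays, against 87.2, 92.7, 71.1 and 98.7 on DMSO arrays. On KSR arrays they were 95, 73.8, 85.7 and 134.9. No Activin array overlapped a DMSO array, every SB array lay below every DMSO array, and the probe was above background on all arrays of the other groups but on no SB array. The log2 means were 8.06 ± 0.19 with Activin, 6.86 ± 0.11 with SB, 7.40 ± 0.12 with DMSO and 7.49 ± 0.13 with KSR (SD, n = 4 each).

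With Activin the Chst15 level was 1.57-fold higher than with DMSO, a log2 difference of 0.65 (SE 0.10), and the authors' values give 2.08-fold. Since the SB level was not above background, only bounds are given for it: at least 1.19-fold lower with SB than with DMSO, and at least 1.87-fold higher with Activin than with SB. These bounds set the group mean of the brighter group against the dim group's mean with every dim value lifted to the array's own lowest level among probes above background. Within the passages the Activin minus DMSO difference was 0.86, 0.54, 0.59 and 0.61. It was widest in passage 20, where the Activin array was the highest of the 4 Activin arrays on the normalized scale.

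Pmepa1 followed the same order with a smaller span. Its deposited intensities were 132, 156.7, 208.1 and 201.7 on Activin arrays and 62.9, 49.6, 81.5 and 75.4 on SB arrays, against 94.4, 110.4, 159 and 114.2 on DMSO arrays. On KSR arrays they were 110.2, 104.4, 136.3 and 123.7. The Activin and DMSO arrays overlapped through DMSO replicate 3, yet in each of the 4 passages the Activin array was the higher one. All SB arrays lay below all DMSO arrays on the normalized scale, and 3 of the 4 SB arrays were above background. The log2 means were 7.95 ± 0.13 with Activin, 7.22 ± 0.09 with SB, 7.65 ± 0.18 with DMSO and 7.67 ± 0.10 with KSR (SD, n = 4 each).

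Pmepa1 differed by a log2 value of 0.30 (SE 0.09), or 1.23-fold, between Activin and DMSO. Between SB and DMSO the log2 difference was -0.43 (SE 0.09), a level 1.34-fold lower with SB, and between Activin and SB it was 0.73 (SE 0.09), or 1.66-fold. The authors' values give folds of 1.39, 1.72 and 2.38 for the same comparisons. Like that of Spsb1, the Pmepa1 span between Activin and SB kept close from passage to passage, at 0.64, 0.74, 0.77 and 0.77. DMSO moved inside it, standing at 43.5%, 72.6%, 73.9% and 41.7% of the way from SB to Activin in passages 20, 21, 23 and 24.

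Ski had the narrowest span of the 4 genes above background. Its deposited intensities were 80, 111.7, 156.8 and 134.5 on Activin arrays and 60.4, 50, 108.1 and 66.5 on SB arrays, against 86.3, 84.5, 130.2 and 94.7 on DMSO arrays. On KSR arrays they were 105.8, 106.3, 136.6 and 98.4. All groups overlapped, since passage 23 was high in Activin, SB and DMSO alike, and the SB array of passage 23 exceeded the DMSO arrays of the other 3 passages. The probe was above background on 15 arrays, 3 of the 4 SB arrays among them. The log2 means were 7.62 ± 0.18 with Activin, 7.25 ± 0.20 with SB, 7.50 ± 0.15 with DMSO and 7.63 ± 0.18 with KSR (SD, n = 4 each). Inside each passage the SB array was the lowest of the 4, with log2 differences from DMSO of -0.23, -0.32, -0.18 and -0.25. Activin was above DMSO in 3 of 4 passages, with a mean log2 difference of 0.12 (SE 0.11), and KSR rather than Activin was the highest array in passages 20 and 21.

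Skil, the SnoN gene, gave no signal above background on any of the 16 arrays. Its deposited intensities ran from -17.6 to -7.9 on Activin arrays and from -20.8 to -0.2 on SB arrays, against -27.6 to -11.6 on DMSO arrays and -20.2 to -6.1 on KSR arrays. The authors' normalized value of the probe was at the floor of 40 on every array. No fold is given for Skil, and this probe does not tell whether its RNA was absent or missed.

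**Figure D1:**
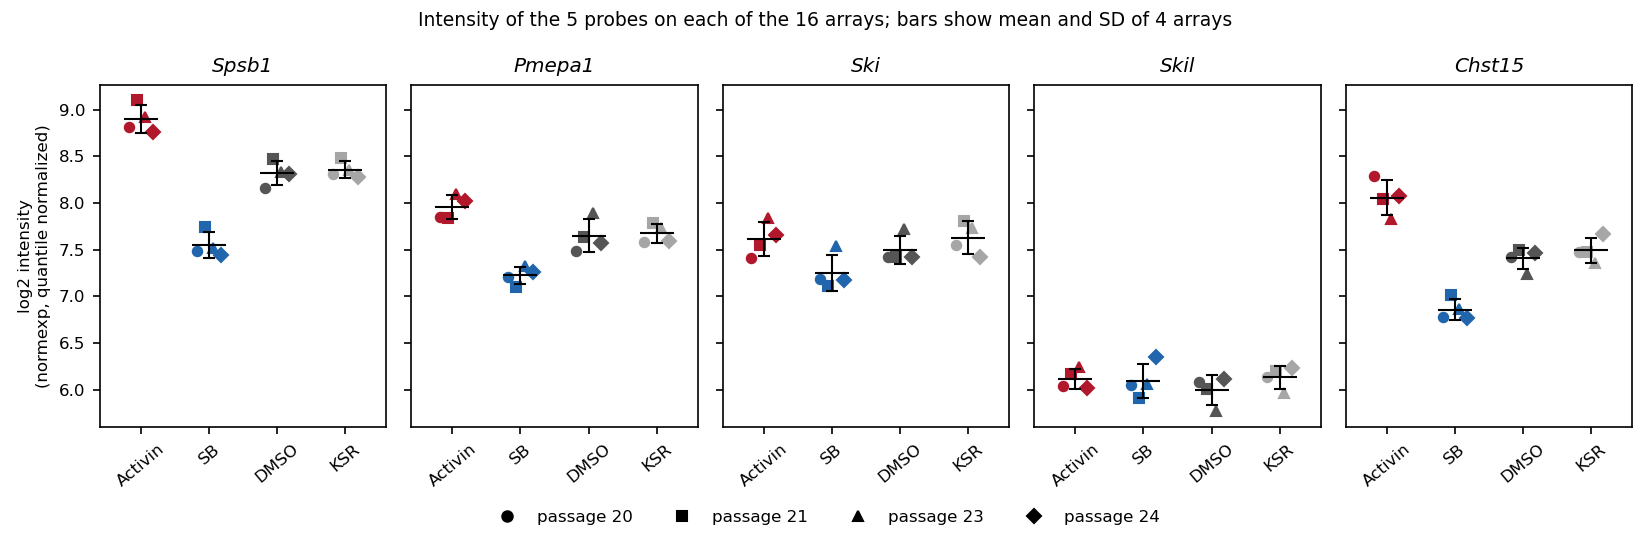
Normalized log2 intensity (y axis) of the 5 probes on Activin, SB, DMSO and KSR arrays, 1 point per array with its shape giving the passage, and bars for the mean and SD of 4 arrays. Spsb1 and Chst15 fall into separate bands for Activin, SB and the controls, Ski arrays overlap between groups, and Skil stays at its background level between 5.77 and 6.35 in all groups.

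**Figure D2:**
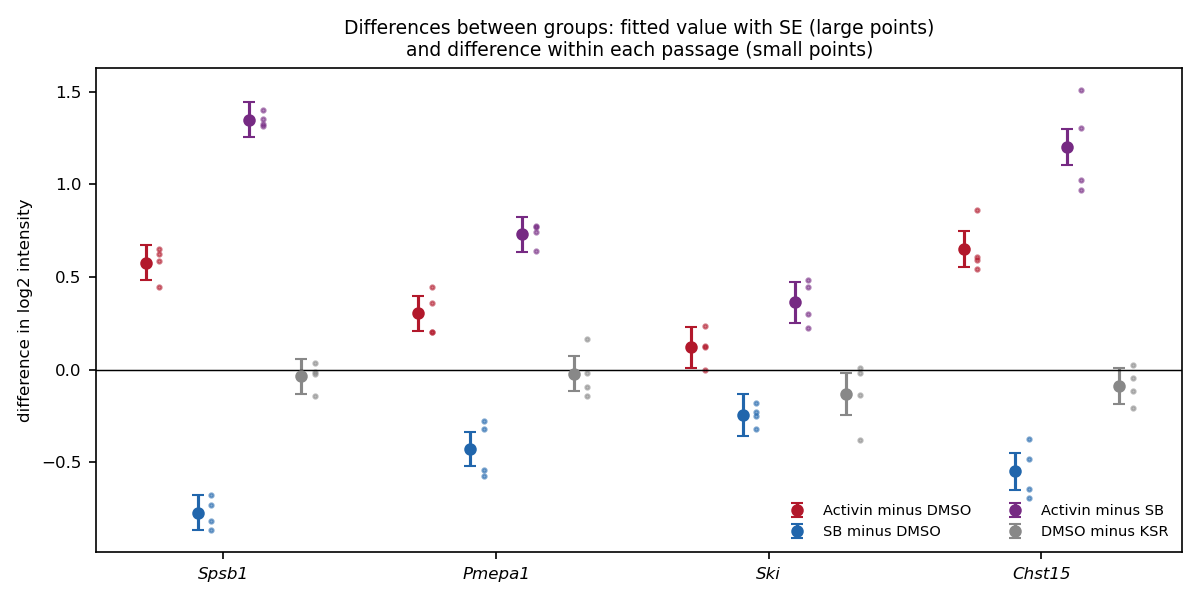
Differences in log2 intensity (y axis) for Spsb1, Pmepa1, Ski and Chst15, with large points and bars for the fitted value and its SE and small points for the difference within each of the 4 passages. Activin minus SB runs from 0.36 for Ski to 1.35 for Spsb1, and the DMSO minus KSR points lie near 0, from -0.13 for Ski to -0.02 for Pmepa1. The SB values of Chst15 are below background.

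All 4 Activin arrays lay above all 4 DMSO arrays for Spsb1 and Chst15, as at 1.24% of the 24606 probes. All 4 SB arrays lay below all 4 DMSO arrays for Spsb1, Pmepa1 and Chst15, as at 1.91% of the probes, and the same 3 genes had all 4 Activin arrays above all 4 SB arrays, as at 2.43%. The genes were chosen on these comparisons, so nothing is read from these counts.

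The linear model over all probes sets the background for the other genes of the pathway, given further on. It called 5 probes in Activin against DMSO, all higher, which is 0.0203% of the probes. In SB against DMSO it called 52 probes lower (0.211%) and 24 higher (0.0975%), and in Activin against SB 143 higher (0.581%) and 78 lower (0.317%). With the passage number as a block the calls were 9 in Activin against DMSO, 150 in SB against DMSO and 438 in Activin against SB.

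DMSO against KSR asks whether the vehicle moved these genes, and no difference was detected for the 4 genes above background. The Skil probe, at background on every array, could not have shown one. The model called 0 of 24606 probes in this comparison (0%), with 803 probes at an unadjusted p under 0.05. The log2 difference was -0.04 for Spsb1 (95% interval -0.23 to 0.16), -0.02 for Pmepa1 (-0.22 to 0.17) and -0.09 for Chst15 (-0.29 to 0.12), each with a limma adjusted p of 0.9996. Ski had the widest difference of the genes above background, at -0.13 (95% interval -0.36 to 0.10, limma adjusted p = 0.9996), and in passage 21 the DMSO array differed from the KSR array by -0.38. A vehicle effect within these intervals would not have been seen with 4 arrays a group.

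Spsb1 and Ski had the lowest p of the 5 genes in the test for the passage of the culture. The F-test for passage, fitted with the group in the model, called 1764 of 24606 probes (7.17%), and Spsb1 was 1 of them (limma adjusted p = 0.0491). Spsb1 was highest in passage 21 in all 4 groups, and its mean over the groups was 8.19 in passage 20, 8.45 in passage 21, 8.28 in passage 23 and 8.20 in passage 24. Taking passage 21 against passage 20 alone, the log2 difference was 0.26 (SE 0.07, 95% interval 0.12 to 0.40, limma adjusted p = 0.0772). The Spsb1 call was narrow: without any single array its adjusted p lay between 0.0545 and 0.130.

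Ski had means of 7.39, 7.47, 7.71 and 7.42 in passages 20, 21, 23 and 24, and its F-test missed the threshold (limma adjusted p = 0.0599). Passage 24 differed from passage 23 by -0.29 on the log2 scale (SE 0.08, 95% interval -0.47 to -0.11, limma adjusted p = 0.0683). Passage 23 was the highest of the Ski arrays with Activin, SB and DMSO, and passage 21 with KSR. Ski passed without KSR replicate 2 (adjusted p = 0.0207) and among only the probes above background on 4 or more arrays (adjusted p = 0.0242), and over the alternatives its adjusted p lay between 0.0207 and 0.211. Pmepa1 (adjusted p = 0.217) and Chst15 (adjusted p = 0.377) did not pass the limma F-test for passage, and Skil was not measured above background. Taking passages 23 and 24 against 20 and 21, the log2 difference was 0.13 for Pmepa1 (95% interval 0.01 to 0.24, limma adjusted p = 0.233) and 0.13 for Ski (0.01 to 0.26, adjusted p = 0.248). It was -0.08 for Spsb1 (-0.18 to 0.02, adjusted p = 0.385) and -0.09 for Chst15 (-0.22 to 0.04, adjusted p = 0.462), so none of the 4 passed.

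A passage number may stand for culture age, a day of treatment or a chip, and these cannot be told apart. The summed deposited intensity of 10 primitive endoderm markers, 4 of them above background on 4 or more arrays, moved with passage too. It was 415 to 617 in passage 20 and 385 to 549 in passage 21, against 1708 to 1925 in passage 23 and 2014 to 2578 in passage 24. Most of it came from Dab2, an endocytic adaptor, at 1137 to 1880 in passages 23 and 24 and 135 to 245 in passages 20 and 21. The transcription factor gene Gata6 (above background on 12 arrays) was at 211 to 346 in the later passages and 12.6 to 78.3 in the earlier ones, and the receptor gene Pdgfra (on 8 arrays) at 63.1 to 123 in the later passages and 12 to 47.9 in the earlier ones. Dab2 (limma adjusted p = 1.09e-15), Gata6 (4.09e-09) and Pdgfra (5.50e-05) passed the F-test for passage. Gata4, above background on all 16 arrays, lay between 137 and 197 in the later passages and between 140 and 248 in the earlier ones (adjusted p = 0.0529). Sox7, Sox17, Foxa2, Lama1, Afp and Ttr were above background on 0 arrays. The part of these markers in the passage differences was not tested.

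**Figure D3:**
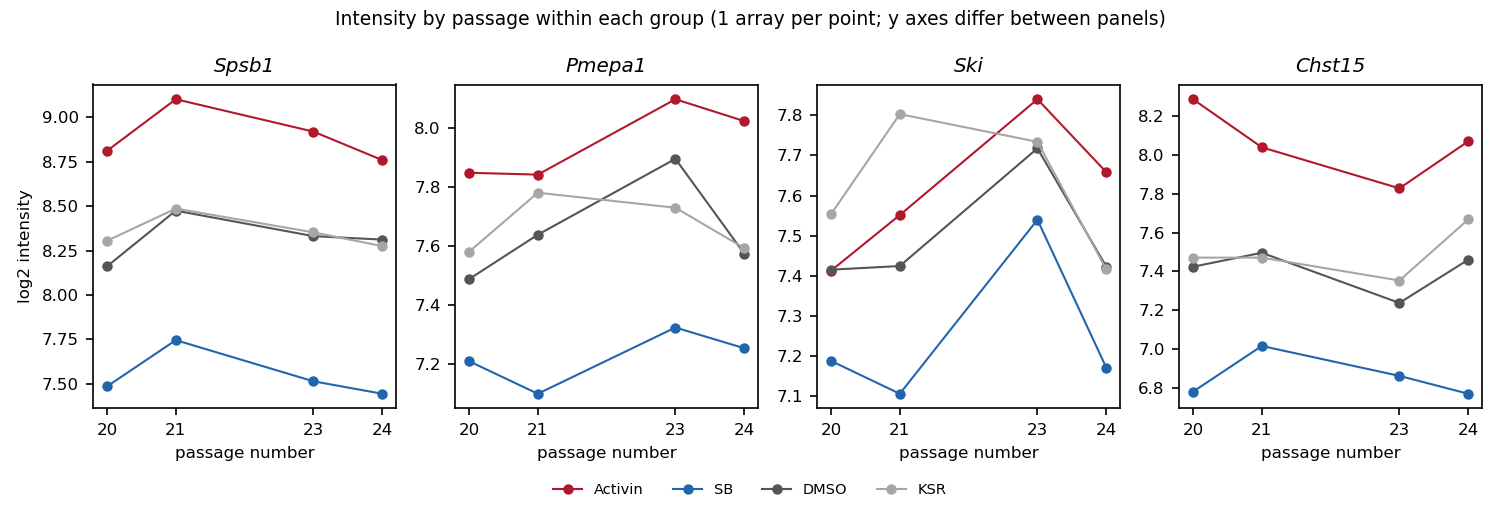
Normalized log2 intensity (y axis, a scale for each panel) of Spsb1, Pmepa1, Ski and Chst15 against passage number (x axis), with a line for each of Activin, SB, DMSO and KSR and 1 array per point. The Spsb1 lines run side by side with a peak in passage 21, and the Activin, SB and DMSO lines of Ski peak in passage 23.

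Across the 16 arrays, 94.9% of the variance of Spsb1 and 92.5% of that of Chst15 lay between the 4 groups, against 84.6% for Pmepa1 and 49.6% for Ski. Passage held 34.0% of the variance of Ski and 4.55% of that of Spsb1. The residual SD of Spsb1 was 0.129 without passage in the model and 0.049 with it, so most of what separated its replicates was common to the 4 arrays of a passage.

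Spsb1 was like the other genes over the treatments but not within them. Over all 16 arrays it correlated with Chst15 (r = 0.93), Pmepa1 (r = 0.90) and Ski (r = 0.64). With the group means removed, these values were 0.04, 0.01 and 0.09. Pmepa1 and Ski went together both ways, with r = 0.83 before and r = 0.86 after the group means were removed. Chst15 had r = 0.80 with Pmepa1 and r = 0.45 with Ski over all arrays, against r = -0.68 and r = -0.71 with the group means removed. Its SB values in these are below background. These are descriptions over 16 arrays that share passages, cultures and normalization, and no test was made of them.

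**Figure D4:**
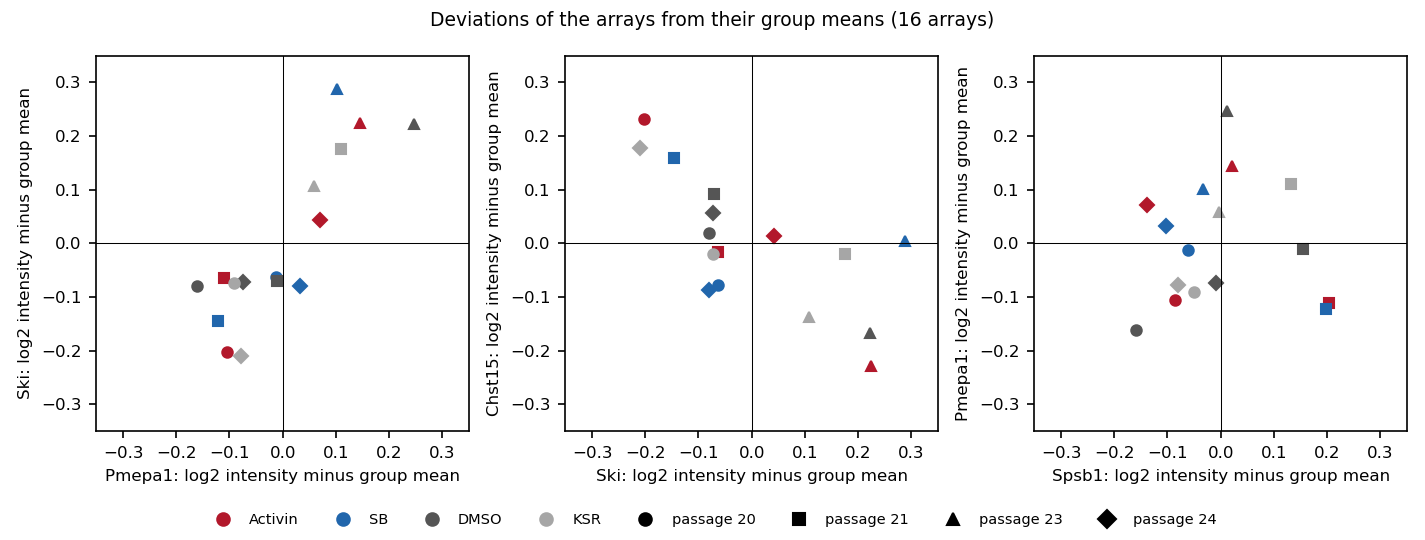
Deviation of each of the 16 arrays from its group mean in log2 intensity, for Ski against Pmepa1, Chst15 against Ski and Pmepa1 against Spsb1, with colour for the group and shape for the passage. Pmepa1 and Ski deviate together (r = 0.86), Ski and Chst15 in opposite directions (r = -0.71), and Spsb1 shows no such relation with Pmepa1 (r = 0.01).

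The genes most like each of these 4 over the 16 arrays were sought among 7772 genes above background. For Spsb1 they were Lefty2 (r = 0.96), the Nodal antagonist, Fgf15 (r = 0.96), a secreted growth factor, and the zinc finger gene Zfp819 (r = 0.95). For Chst15 they were Fgf15 (r = 0.95), Ppp1r1a (r = 0.94), an inhibitor of protein phosphatase, and Nphs1 (r = 0.94), the nephrin gene. For Pmepa1 they were Plac9a (r = 0.94), Msantd3 (r = 0.93) and the adhesion receptor gene Adgre5 (r = 0.91), and for Ski the histone chaperone gene Hira (r = 0.88), the glycosyltransferase gene Galnt2 (r = 0.88) and Dab2ip (r = 0.86). Fgf15 was thus near both graded genes, with log2 means of 9.31 with Activin and 8.42 with DMSO. Its SB mean of 6.90 lay under the lowest level of a probe above background on any array (7.09), so it is not a measured level. With 94.9% of the variance of Spsb1 and 92.5% of that of Chst15 between groups, their r values mostly restate the group differences on which they were chosen. The genes nearest to Ski had smaller treatment differences: Hira had a log2 difference of -0.11 and Galnt2 of -0.10 between SB and DMSO.

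Other genes that regulate Smads inside the cell or at the receptor gave no call. The list of 22 genes holds inhibitory Smads, Smad ubiquitin ligases, receptor decoys and other regulators, and not all of them restrain the signal. Of these 22 genes 19 were measured, and 0 passed the test in Activin against DMSO, SB against DMSO or Activin against SB. Over all probes the largest share called was 0.581%, for those higher in Activin against SB. With so few calls, 0 in a list of this size does not set it apart from the other probes. The same holds for the corepressor, Spsb1-related and chondroitin sulfate lists below. Their median log2 difference was 0.02 in Activin against DMSO and 0.04 in SB against DMSO, beside a median of 0.00 over all probes. The lowest unadjusted p values were those of the ubiquitin ligase genes Smurf2 (log2 difference 0.17, SE 0.08, limma adjusted p = 0.602) and Wwp2 (-0.18, SE 0.09, adjusted p = 0.663) in Activin against SB. Smad7, the inhibitory Smad best known as a feedback gene, was above background on 0 arrays, as were Bambi and Ldlrad4. For these 3 genes the arrays do not show whether signalling moved them.

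The list of corepressors and related nuclear factors gave no call either. Of its 22 genes 18 were measured, 10 of them above background on 4 or more arrays. In the treatment comparisons 0 of these 18 passed the test. Their log2 differences lay between -0.13 and 0.09 in Activin against DMSO and between -0.20 and 0.12 in SB against DMSO. Hdac1, the histone deacetylase gene, had the lowest p, in Activin against SB, with a log2 difference of -0.13 (SE 0.08, limma adjusted p = 0.790). Fosl1, next by p in SB against DMSO (adjusted p = 0.971), was above background on 0 arrays.

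Among the Smads that carry the signal and their nuclear partners, 9 of 13 were measured and 1 passed. Smad3, which is phosphorylated by the Activin receptor, was lower with Activin than with SB (log2 difference -0.49, SE 0.09, limma adjusted p = 0.00197), the reverse of the order seen for Spsb1, Pmepa1 and Chst15. Its log2 means were 8.91 with Activin, 9.40 with SB and 9.17 with DMSO, and neither step passed alone: Activin minus DMSO was -0.26 (adjusted p = 0.9999) and SB minus DMSO 0.23 (adjusted p = 0.634). Foxh1, at 8.28 with Activin, 8.26 with SB and 8.18 with DMSO, did not pass in any of these comparisons. Without passage 20 in every group the Smad3 difference was -0.43 (adjusted p = 0.0550).

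The relatives and partners of Spsb1 gave no call. All 13 other genes listed for the SPRY-domain SOCS box family, its ligase subunits and known substrates were measured, and 0 passed in the treatment comparisons. Spsb4, a close relative, had log2 means of 8.71 with Activin and 8.88 with SB, against 8.90 with DMSO, and its Activin minus DMSO difference was -0.19 (SE 0.09, limma adjusted p = 0.9999). Spsb2 differed by 0.18 (SE 0.10) in the same comparison, and Cul5, the scaffold of the ligase, was above background on 0 arrays. The substrate genes Met and Nos2 were above background on 0 arrays too, Nos2 having the next lowest p after Spsb4, in Activin against SB (adjusted p = 0.698).

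None of the other genes of chondroitin sulfate synthesis was called. Of 27 such genes 23 were measured, 11 of them above background on at least 4 arrays, with 0 past the threshold in the treatment comparisons. Pxylp1, a phosphatase acting on the linker sugar, came closest, with log2 means of 8.04 with Activin, 8.34 with SB and 8.09 with DMSO. Its Activin minus SB difference was -0.30 (SE 0.10, limma adjusted p = 0.210), and the fit with a passage block gave an adjusted p of 0.0506. B4galt7, which adds a galactose to the same linker, differed by 0.27 (SE 0.10, limma adjusted p = 0.443). Chst3 and Chst11, sulfotransferases that act on the same chain, were above background on 0 arrays.

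The secreted and membrane genes of the Nodal pathway gave the scale against which the 5 genes can be read. Of 18 such genes 16 were measured. In Activin against DMSO 2 were higher, Lefty2 by 1.56 and Lefty1 by 1.29 on the log2 scale (limma adjusted p = 5.11e-04 and 0.00192). In SB against DMSO 4 were lower. On SB arrays Lefty1 was above background on 1 of 4 arrays and Lefty2 on 0, so bounds are given: Lefty1 was at least 28.8-fold lower with SB than with DMSO and Lefty2 at least 8.62-fold lower (limma adjusted p = 4.79e-15 and 4.97e-12). Tdgf1, the Nodal co-receptor gene, was lower by 0.99 on the log2 scale (adjusted p = 0.00123), and Nodal itself by 0.55 (adjusted p = 0.00855). The Nodal call held in 13 of 20 alternatives. Among others it was lost without DMSO replicate 2 (limma adjusted p = 0.0557), with an offset of 16 (0.0657) and without normexp (0.0704). With passage as a block Gdf1, a Nodal partner ligand, was lower too (log2 difference -0.34, adjusted p = 0.0258). In Activin against SB all 5 were higher with Activin, Gdf1 by 0.49 and Nodal by 0.86. The Spsb1 span of 2.55-fold and the Chst15 span of at least 1.87-fold stood beside those of Nodal at 1.81-fold and Tdgf1 at 2.19-fold and far below that of Lefty2, at least 25.4-fold. How near they stand depends on the offset, which narrows the spans of dim probes. Without normexp the Activin minus SB log2 difference was 1.91 for Spsb1, 1.56 for Tdgf1 and 0.89 for Nodal. The main fit gave 1.35, 1.13 and 0.86.

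**Figure D5:**
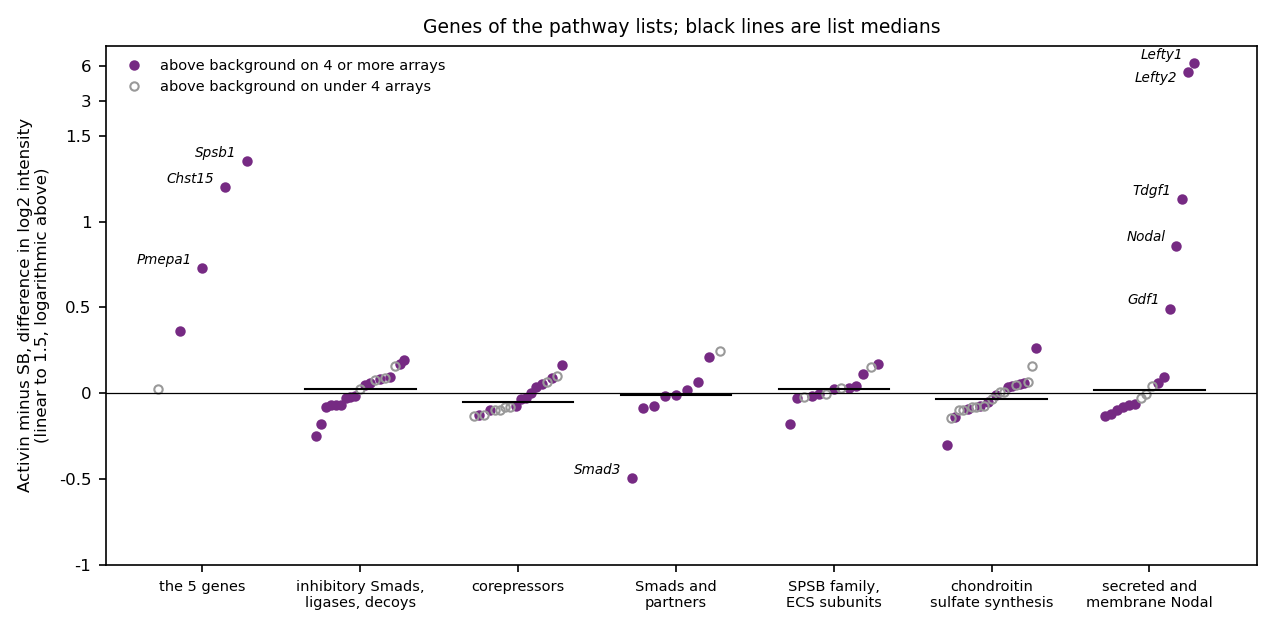
Activin minus SB difference in log2 intensity (y axis, linear to 1.5 and logarithmic above) for each measured gene of the 5 genes and 6 pathway lists, with filled points for genes above background on 4 or more arrays, open points for the others and a black line at each list median. Spsb1, Chst15 and Pmepa1 lie above all measured genes of the 5 lists other than the secreted and membrane Nodal genes, where Lefty1 and Lefty2 lie highest, and Smad3 lies lowest at -0.49. The 5 genes were chosen on these comparisons, so nothing is read from their place. The SB values of Chst15 and Lefty2, and of Lefty1 on 3 of 4 arrays, are below background.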

How the data were processed

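RNA of 16 cultures was hybridised to Illumina MouseRef-8 BeadChips, 1 array a culture. The authors read the arrays in BeadStudio (version not given in the sources used here) and deposited 2 kinds of intensity: a background-subtracted, non-normalized intensity, used for the main values, and an intensity normalized by cross-correlation, in which values under 40 are set to 40, used as an alternative.

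From the deposited non-normalized intensity, values were corrected with normexp (saddle, offset 50), quantile normalized and put on the log2 scale in limma 3.58.1 (R 4.3.3). The offset narrows the folds of dim probes. A 4-group linear model with eBayes was fitted to all 16 arrays (12 residual degrees of freedom) and p-values, two-sided, were adjusted by Benjamini-Hochberg over all 24606 probes, with a threshold of 0.05. Passage was tested with group and passage in the model. The p-values of the 4-group model measure the spread between cultures of different passages, and the number of arrays limits the precision (median residual SD 0.138 on the log2 scale). Those of the passage tests (9 residual degrees of freedom) measure the scatter of arrays left once group and passage are fitted. Each passage occurs once in each group, so they do not measure the spread between separate cultures of equal passage. The fits were tested on simulated data.

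The probes were named from the platform annotation, updated by gene identifier: 20980 probes had 1 symbol, 1 had several and 3625 had none. For list genes with several probes the probe of highest mean was used. The genes named are the 5 genes, every gene of a pathway list past the threshold in a treatment comparison, or where none passed the 2 with the lowest p over these comparisons, the 3 genes most correlated with each gene above background, and Lefty1. Others named (Smad7, Bambi, Ldlrad4, Foxh1, Spsb2, Cul5, Met, Chst3, Chst11) and the primitive endoderm markers were chosen after their values were seen. The 5 genes, the lists and the tests were chosen with earlier results of these data known.

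The labels tie each replicate number to a passage, so numbers pair the arrays of the groups. After removal of group means, r lay between 0.0977 and 0.325 for arrays of equal number (24 pairs) and between -0.238 and 0.0995 for the rest (72 pairs). The fit with passage as a block lowered the median residual SD to 0.124. The alternatives were another offset, no normexp, scaling to the 75th percentile, the authors' normalized values, only probes above background, passage as a block, eBayes with trend and robust, only the groups compared, KSR in place of DMSO, and leaving out arrays.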

Additional observations from a re-analysis of the deposited data

Results flagged for a closer look

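The Ski value of DMSO replicate 3 (passage 23) stood apart from the other DMSO arrays, at 7.72 on the normalized log2 scale, while the other 3 all lay at 7.42 when rounded. Its gap to the nearest array took 0.97 of the range of the group, past the 95% critical value of Dixon's test for 4 values. Of 20 groups of 4 arrays tested over the 5 genes this was the only one past that value, and chance alone passes about 1 in 20.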

How the results depend on the processing

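For the 4 genes above background, 255 of 256 values of the treatment differences under the alternatives kept their sign. The genes were chosen on these comparisons, so this is no sign of stability. The exception was Ski in Activin against DMSO, at -0.01 with the KSR arrays in place of DMSO. The sizes moved by over 1 SD in 26 of the 256, all with an offset of 16, without normexp or with the authors' normalized values, which widen the differences of dim probes. Skil was at the floor without normexp and on the authors' values, which gave no value for it. In DMSO against KSR no alternative called any of these 4 genes, and 8 of 80 values turned sign, all of them with arrays left out. Leaving out arrays gave -0.087 to 0.018 for Spsb1 and -0.104 to 0.032 for Pmepa1 on the log2 scale. Of the other pathway genes, in fits added after the data were seen, every call in Activin against SB held in all 20 alternatives except that of Smad3, which held in 19. In SB against DMSO the calls of Lefty1 and Lefty2 held in 20, of Tdgf1 in 17 and of Nodal in 13, and in Activin against DMSO those of Lefty2 in 17 and of Lefty1 in 15. The Spsb1 call in the passage F-test held in 4 of 22 alternatives.

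The counts over all probes moved as follows, and the cause was not tested. Activin against DMSO called 2 probes with an offset of 16, 1 without normexp, 3 on the authors' values and 9 with the replicate block. SB against DMSO called 46, 37, 38 and 150 under the same settings and 49 with only the 2 groups in the fit. Activin against SB called 129 without normexp, 123 on the authors' values and 438 with the replicate block. The passage F-test called 693 with an offset of 16, 1147 without normexp, 4137 with 75th percentile scaling, 962 on the authors' values and 2756 over probes above background. Leaving out arrays gave 0 to 5 probes in Activin against DMSO, 35 to 71 in SB against DMSO, 115 to 233 in Activin against SB and 1094 to 1770 for passage. The count of 0 in Activin against DMSO came without passage 20. Without the SB or KSR array of passage 24 the passage count was 1130 or 1094, and without DMSO replicate 3 Activin against DMSO called 3 probes. The DMSO against KSR count was 0 in every setting. Signal over background limits what can be said of Skil, and of Chst15 with SB.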
